A study of Mus musculus with 8 samples.

Results

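The AP-1 family comprises transcription factors with a basic leucine zipper (bZIP), a pair of which grips DNA as a dimer. Its 10 genes examined here were chosen by name from the 45706 Ensembl genes of the count tables: Fos, Fosb, Fosl1 and Fosl2 of the Fos family, Jun, Junb and Jund of the Jun family, and the related genes Atf3, Batf2 and Maff. All 10 were found, and all passed the filter on low counts, which left 14491 genes. RNA-Seq was performed on crypts, the glandular pockets of the gut lining in which stem and progenitor cells reside, freshly isolated by EDTA chelation from the small intestine (SI) and the colon (COL) of wild-type C57BL/6N mice. The 4 donors, 2 female and 2 male, each gave 1 library per tissue, so that 4 SI libraries (SI1 to SI4) were compared with 4 COL libraries (COL1 to COL4) by tissue of origin alone, without any treatment. Libraries with the same number came from the same mouse, the labels number the donor of SI4 and COL4 as mouse 5, and ages are not given in the sources used here. Mice 1 and 5 were female, mice 2 and 3 male. The isolation protocol, which is described for organoid cultures, scrapes villi off the SI and keeps the colon longer and in more EDTA.

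Fos and Fosl1 are ERK-responsive: phosphorylated ERK activates ELK proteins bound with SRF at the Fos promoter, and Fos is transcribed within minutes of a growth signal before its RNA is rapidly degraded. Fos proteins cannot pair with themselves and need a Jun partner, whereas Jun proteins also pair with each other, with ATF proteins and with BATF proteins. In the gut epithelium, AP-1 is known for its part in growth factor, wound and stress responses and in intestinal tumours driven by RAS, RAF or Wnt signals. The comparison asks whether the AP-1 transcripts, of which Fos and Fosl1 are ERK-responsive, differ between crypts of the 2 tissues in their oncogene-naive state.

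Proximal promoters were taken from RefSeq (GRCm38.p6, the assembly of mm10) for the 8 members that matched, Fosl1 and Batf2 not being among them. The 3 stretches printed here are each the 120 bases before a transcript start. They include those of Fos, the member with the highest level, and of Jun, with which Fos forms the classical dimer. The third is that of an inner start of Maff, which holds the complete cyclic AMP response element. They are chr12:85473770-85473889 (plus strand), chr4:95052223-95052342 (minus strand) and chr15:79347400-79347519 (plus strand). Capitals mark the matched letters.
Fos: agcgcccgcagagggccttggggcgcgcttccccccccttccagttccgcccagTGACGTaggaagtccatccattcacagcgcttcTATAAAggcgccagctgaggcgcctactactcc
Jun: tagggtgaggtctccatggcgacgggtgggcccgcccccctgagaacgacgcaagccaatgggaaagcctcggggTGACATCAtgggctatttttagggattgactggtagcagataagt
Maff: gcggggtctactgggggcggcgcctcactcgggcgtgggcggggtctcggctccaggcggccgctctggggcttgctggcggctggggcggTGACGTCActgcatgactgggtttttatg
The Fos stretch held TGACGT, the core of the cyclic AMP response element, 66 bases before the start and a TATAAA box 33 bases before it. The Jun stretch held TGACATCA, a variant that Jun and ATF proteins are known to bind, 45 bases before the start. The Maff stretch held TGACGTCA 29 bases before the start. Searched on both strands over all 32851 promoters of the same length, TGACGT (which TGACGTCA contains) was found in 4.55%, TGACGTCA in 1.24%, TGACATCA in 2.10% and TATAAA in 6.34%. Of the stretches not printed, that of Atf3 held ACGTCA 8 bases before the start, and that of another inner Maff start held TGACATCA 45 bases before it. Those of Fosl2, Fosb, Jund, Junb and the outer Maff start held none of the letters searched. TGACTCA, also searched, was found in no member promoter and in 2.30% of all. A match describes the letters and not a bound site.

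Libraries held 15969428 to 32908060 counts. The share of counts on mitochondrial genes ranged from 4.83% to 50.8%, and in each tissue 2 libraries were above 15% (SI2, SI3, COL1 and COL2, called high below) and 2 under it. In the SI, the high libraries were also those of the male mice. Fos and its relatives are given as CPM, counts scaled to library size after correction by the trimmed mean of M-values (TMM), and differences as log2 fold changes, positive where the SI was higher. They come from the quasi-likelihood test of edgeR, with p-values adjusted over the 14491 genes by the Benjamini-Hochberg method. Epithelial Epcam and Cdh1 were at 391 to 906 CPM in all 8 libraries, as in epithelium. The whole epithelium list (Epcam, Cdh1, Krt8, Krt18, Vil1) was less even, summing to 6419 to 11687 CPM in the SI and 3200 to 7937 CPM in the COL. The villus list (Apoa4, Apoa1, Alpi, Sis, Ada) summed to 27506 to 82129 CPM in the SI against 15.4 to 94.4 CPM in the COL. The list of surface colonocytes (Car1, Aqp8, Slc26a3, Krt20, Guca2a) summed to 5019 to 11759 CPM in the SI. In COL1 to COL4 it summed to 7775, 5205, 35545 and 20184 CPM. It was thus higher in the COL libraries of low mitochondrial share, and the 2 traits cannot be told apart within the COL.

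Of the 10 AP-1 genes, 3 passed an adjusted p of 0.05. Fos and Batf2 were higher in SI crypts and Fosl1 was higher in COL crypts. The same 3 genes were those whose SI and COL libraries did not overlap. Of these, Fosl1 passed the filter on low counts through its COL libraries alone, the side where it was higher. Among all genes tested, 28.4% passed (15.5% higher in the SI and 12.9% higher in the COL) and 33.5% did not overlap, so the share of AP-1 genes called was close to that of genes in general. Blocking on the donor, the same 3 genes passed, beside 28.1% of all genes. The median log2 fold change was 0.66 over the 10 genes and -0.09 over all genes. In bulk RNA, a change in the number of cells that express a gene and a change in RNA per cell cannot be told apart.

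**Figure D1:**
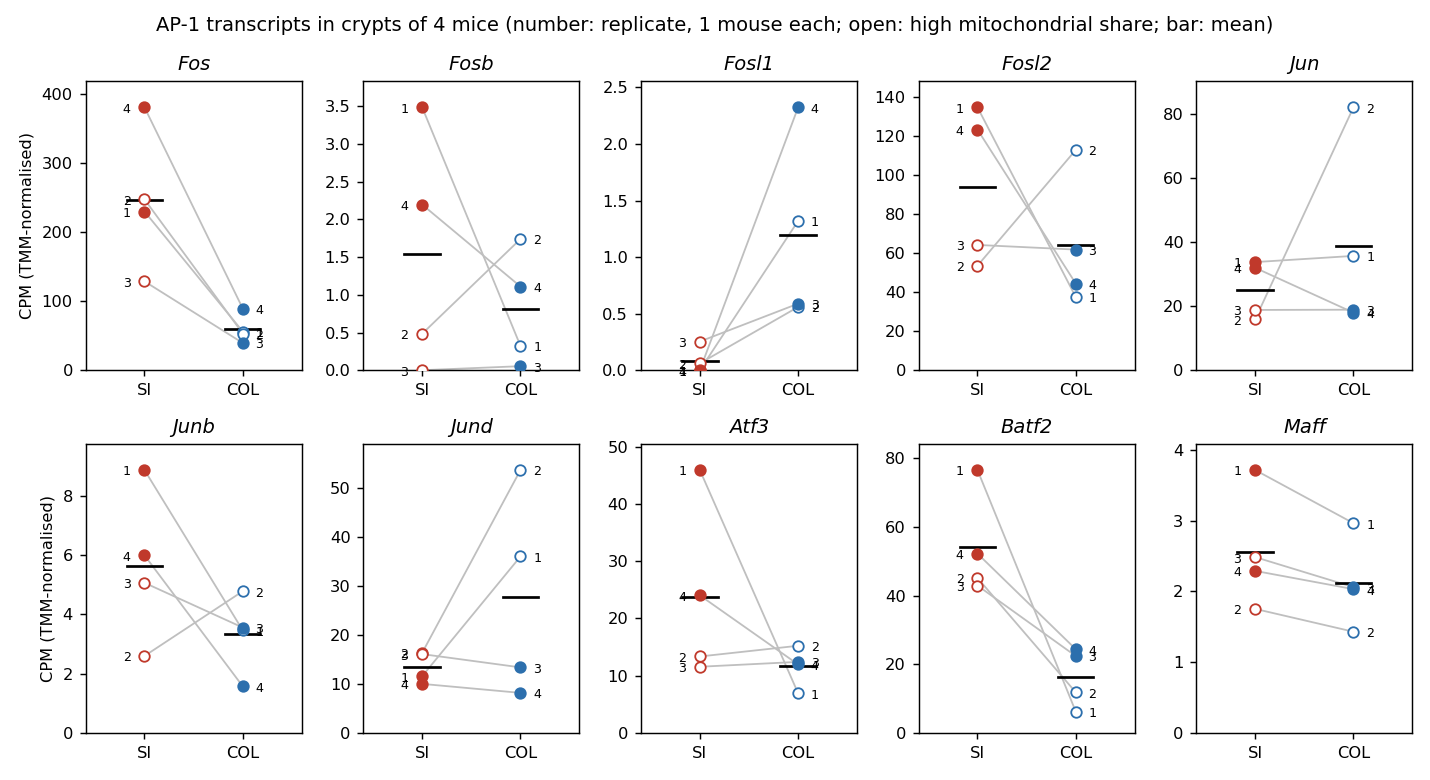
TMM-normalised CPM (vertical axes, linear and starting at 0) of the 10 AP-1 genes in SI (red) and COL (blue) crypts. Each point is 1 library with its replicate number, grey lines join libraries of the same mouse, black bars are means of 4 libraries, and open points are libraries with over 15% mitochondrial counts. Fos and Batf2 in the SI sit above all COL points, Fosl1 in the SI sits below them, and the remaining genes overlap.

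Fos, the founding member and an immediate early gene, was at 230, 247, 129 and 381 CPM in SI1 to SI4 and at 55.9, 53.1, 39.3 and 89.2 CPM in COL1 to COL4. The lowest SI library lay above the highest COL library. The means were 247 ± 104 CPM in the SI and 59.4 ± 21.1 CPM in the COL (SD, n = 4 each), a 4.15-fold difference and a log2 fold change of 2.05 (SE 0.39, adjusted p = 0.0024 by edgeR's quasi-likelihood test). Within mice, log2 differences were even, at 2.04, 2.22, 1.71 and 2.09. Fos lies on chromosome 12 from 85473890 to 85477273 and shares no exonic base with another gene.

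Leukocyte genes shared the direction of Fos between the tissues. Of 8 in the list, 5 were tested, all 5 with positive log2 fold changes. The 3 that passed (60%, beside 28.4% of all genes) were Itgam (log2 fold change 2.45), the T cell gene Cd8a (2.26) and Cd3e (2.05). The other 2 had adjusted p-values of 0.0511 and 0.0516 by edgeR. With the donor block, all 5 passed, beside 28.1% of all genes. The leukocyte list summed to 115, 44.3, 45.2 and 84.5 CPM in SI1 to SI4, an order of libraries unlike that of Fos. In COL1 to COL4 the sums were 15.3, 13.5, 13.1 and 40.0 CPM, in the same order as Fos. Cd79a, Csf1r and Adgre1, which mark B cells and macrophages, were at or under 1.54 CPM in all libraries. The neutrophil markers S100a8, S100a9, Csf3r and Cxcr2 summed to 0 to 0.725 CPM in the SI and 0.0293 to 0.559 CPM in the COL. Of these, S100a8 and S100a9 were at 0 in the 4 SI libraries. With the mean leukocyte level as a covariate, the Fos log2 fold change was 1.24 (adjusted p = 0.195, edgeR), and since this level was higher in the SI in all 4 mice, the covariate and the tissue cannot be told apart.

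The 3 genes closest to Fos in pattern, by the root mean square difference of centred log2 CPM over the 8 libraries, were Ptpn22 (0.331), a lymphoid phosphatase gene, Itgae (0.357), which encodes the integrin CD103, and Pdp2 (0.369), which encodes a pyruvate dehydrogenase phosphatase subunit.

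Fosb, a close relative of Fos that is also induced early, was at 3.49, 0.483, 0 and 2.20 CPM in SI1 to SI4 and at 0.323, 1.74, 0.0535 and 1.11 CPM in COL1 to COL4. The 0 in SI3 allows a level of up to 0.152 CPM (3 counts, counting error only). Both female SI libraries were above both male ones, the tissues overlapped, and the log2 fold change was 0.97 (SE 1.20, adjusted p = 0.588, edgeR).

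Fosl1 encodes FRA-1, whose transcription and protein stability depend on ERK. Its counts were 0, 1, 5 and 0 in SI1 to SI4 against 45, 9, 22 and 111 in COL1 to COL4, that is, 0, 0.0604, 0.253 and 0 CPM against 1.32, 0.559, 0.588 and 2.32 CPM. The counts of 0 allow up to 0.136 CPM in SI1 and 0.137 CPM in SI4. All COL libraries were above all SI libraries, although each level was low. Only the COL libraries carried Fosl1 past the filter on low counts, so its being tested was not independent of this direction. The log2 fold change was -3.90 (SE 1.12, adjusted p = 0.0202, edgeR). The call was lost, at a similar log2 fold change, without SI4 (-3.50, adjusted p = 0.0535), COL1 (-3.84, 0.0561) or COL4 (-3.33, 0.0718) and with the mean leukocyte level as a covariate (-3.95, 0.0693), each by edgeR. It was also lost, at a smaller one, with the mean proliferation level as a covariate (-2.89, adjusted p = 0.0628) and in the libraries of high mitochondrial share alone (-2.60, 0.270).

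Of the exonic bases of Fosl1 (chromosome 19, 5447547 to 5455946), 57.2% are also exonic in Ccdc85b on the opposite strand. Whether counting used the strand is not given in the sources used here, and Fosl1 is therefore uncertain. Ccdc85b itself had 3 to 17 counts in the SI and 9 to 77 in the COL, and its log2 fold change was -1.21 (adjusted p = 0.312, edgeR). Closest to Fosl1 in pattern were Dlk1 (0.516), encoding a Notch-like surface protein, Khdrbs3 (0.519), an RNA-binding protein gene, and S100a16 (0.546), a calcium-binding protein gene.

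Fosl2 encodes FRA-2, the other Fos protein without a strong activation domain. It was at 135, 53.5, 64.2 and 123 CPM in SI1 to SI4 and at 37.5, 113, 61.8 and 44.4 CPM in COL1 to COL4. The highest COL value, in COL2, was above the values of 2 SI libraries. The log2 fold change was 0.55 (SE 0.42, adjusted p = 0.358, edgeR), and the tissue difference within mice went both ways, from -1.08 in mouse 2 to 1.84 in mouse 1.

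Jun, the partner that forms the classical dimer with Fos, was at 33.7, 15.9, 18.8 and 32.0 CPM in SI1 to SI4. In COL1 to COL4 it was at 35.7, 82.0, 18.9 and 17.97 CPM. COL2, the library with the largest mitochondrial share, stood above the rest, and the log2 fold change of -0.62 (SE 0.48, adjusted p = 0.371, edgeR) became 0.07 without it. Where the mitochondrial share was high, both COL libraries were above both SI libraries (log2 fold change -1.81, adjusted p = 0.0335, edgeR, 2 against 2, where 14.8% of all genes passed). Where it was low, both COL libraries were below them (0.83, adjusted p = 0.0216, edgeR, 2 against 2, where 37.0% passed). The difference between these 2 contrasts was -2.59 (SE 0.53, unadjusted p = 0.00102, adjusted p = 0.507, edgeR), and 0 of the 14491 genes passed this test after adjustment, 1385 having an unadjusted p under 0.05.

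Junb, an early-induced Jun gene with weaker activating power, was at 8.88, 2.60, 5.07 and 6.00 CPM in SI1 to SI4 and at 3.46, 4.79, 3.56 and 1.57 CPM in COL1 to COL4. The SI libraries were the higher ones in 3 of 4 mice, with overlap between the tissues (log2 fold change 0.76, SE 0.47, adjusted p = 0.260, edgeR). Of the exonic bases of Junb, 7.52% are also exonic in Prdx2 on the opposite strand. Prdx2 had 2555 to 4288 counts in the SI and 1051 to 8459 in the COL, where Junb had 43 to 196 over the 8 libraries. Since the use of strand in counting is not given, the Junb level is uncertain.

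Jund, the Jun gene known for steady expression in resting cells, was at 11.6, 16.4, 16.1 and 10.03 CPM in SI1 to SI4 and at 36.1, 53.8, 13.4 and 8.19 CPM in COL1 to COL4. In each tissue, both libraries with a high mitochondrial share were above both with a low share. The high libraries exceeded the low ones by 1.33 on the log2 scale with tissue in the model (SE 0.35, adjusted p = 0.0468, edgeR), and 8.21% of all genes passed this test in either direction. In the COL, Jun too was lower in both low libraries, as were 26.9% of all genes, and Batf2 was higher in both, as were 34.6%. Between tissues the log2 fold change was -1.04 (SE 0.51, adjusted p = 0.154, edgeR). It was -1.33 (adjusted p = 0.0426, edgeR) without COL4 and -0.54 (adjusted p = 0.424, edgeR) without COL2. In the high libraries alone it was -1.53 (adjusted p = 0.0294, edgeR), and in the low ones alone -0.0039 (adjusted p = 0.993, edgeR). Within mice 1, 2, 3 and 5 the log2 differences were -1.63, -1.71, 0.27 and 0.29. Of the exonic bases of Jund, 52.6% lie opposite the gene model Gm11175, which had 0 counts in all libraries. Since the use of strand in counting is not given, the Jund level is uncertain too.

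**Figure D2:**
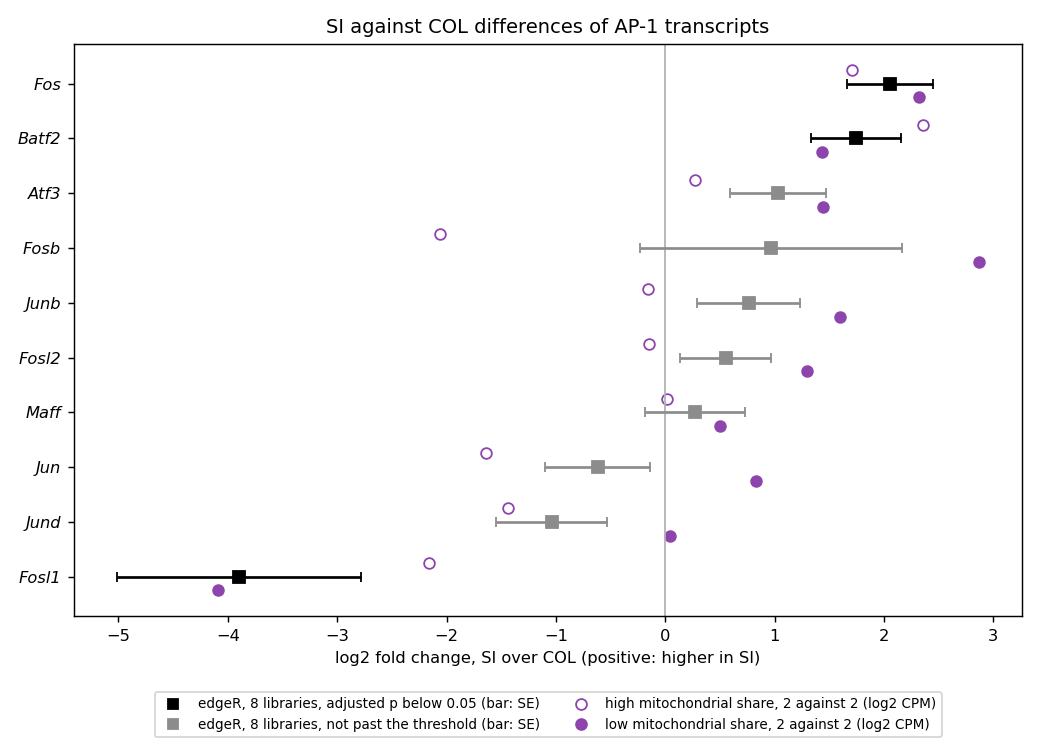
Differences between SI and COL crypts on a log2 scale (horizontal axis, positive where the SI was higher) for the 10 AP-1 genes. Squares with SE bars are edgeR estimates from 8 libraries, black where the adjusted p was below 0.05, and purple circles are differences of mean log2 CPM within the libraries of high (open) or low (filled) mitochondrial share, 2 against 2. Fos, Batf2 and Fosl1 keep their side of 0 in both, as do Atf3 and Maff, which were not called. Jun lies at -1.64 in the high and 0.83 in the low libraries.

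Atf3, a stress-induced member of the ATF/CREB branch that pairs with Jun proteins, was at 45.9, 13.4, 11.6 and 24.0 CPM in SI1 to SI4 and at 6.92, 15.2, 12.4 and 11.96 CPM in COL1 to COL4. Only SI1 and SI4, the SI libraries of the female mice, were above all COL libraries. The log2 fold change was 1.03 (SE 0.44, adjusted p = 0.104, edgeR), with 2.72 and 1.00 in the female mice and -0.19 and -0.10 in the male mice.

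Batf2 encodes an interferon-inducible protein that has a leucine zipper but no activation domain and pairs with Jun. It was at 76.6, 45.1, 42.9 and 52.2 CPM in SI1 to SI4 and at 6.19, 11.8, 22.4 and 24.4 CPM in COL1 to COL4. All SI libraries were above all COL libraries. The means were 54.2 ± 15.4 CPM in the SI and 16.2 ± 8.65 CPM in the COL (SD, n = 4 each), 3.34-fold apart, with a log2 fold change of 1.74 (SE 0.41, adjusted p = 0.0085 by edgeR's quasi-likelihood test). Within mice the log2 difference ranged from 0.94 in mouse 3 to 3.61 in mouse 1.

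The Batf2 call depended on the scaling and on the leukocyte covariate. Without TMM, by library size alone, the log2 fold change was 0.96 (adjusted p = 0.0873, edgeR), while the median of all genes moved by -0.73 to -0.82. Relative to that median, Batf2 was at 1.79, against 1.83 with TMM. With the mean leukocyte level as a covariate it was 0.85 (adjusted p = 0.337, edgeR). Batf2 lies on chromosome 19 from 6140983 to 6172476, with 2.02% of its exonic bases opposite Arl2. Its closest genes in pattern were Zfp239 (0.157), a zinc finger gene, Stap2 (0.183), a signal adaptor gene, and Thnsl2 (0.203), a threonine synthase-like gene.

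Maff, a small Maf gene whose protein lacks an activation domain and pairs with CNC proteins such as NRF2, was at 3.71, 1.75, 2.48 and 2.29 CPM in SI1 to SI4. In COL1 to COL4 it was at 2.96, 1.43, 2.06 and 2.03 CPM. The SI library was the higher one in 4 of 4 mice, but by less than the spread between mice (log2 fold change 0.27, SE 0.46, adjusted p = 0.705, edgeR). The sign was negative by library size alone (-0.53, adjusted p = 0.393, edgeR).

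Compared per kilobase of exonic sequence, Fos had the highest mean level in both tissues, at 105 ± 44.0 CPM per kb in the SI and 25.3 ± 8.99 CPM per kb in the COL (SD, n = 4 each). In the SI it was followed by Batf2 (21.5 CPM per kb), Atf3 (11.01), Fosl2 (9.70), Jund (8.11), Jun (7.87), Junb (2.45), Maff (0.987), Fosb (0.247) and Fosl1 (0.0386). Among neighbours in this order, only Fos and Batf2, Jun and Junb, and Maff and Fosb had ranges that did not overlap. In the COL the order was Fos, Jund (16.7 CPM per kb), Jun (12.1), Fosl2 (6.62), Batf2 (6.42), Atf3 (5.40), Junb (1.45), Maff (0.818), Fosl1 (0.589) and Fosb (0.129). There only Atf3 and Junb were separate.

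Fos made up 87.1% to 94.9% of the Fos family sum per kb in the SI and 64.9% to 86.5% in the COL, without overlap. Fosl1 made up at most 0.203% in the SI and 0.790% to 2.61% in the COL. Of the whole 10-gene sum, Fos took 52.3% to 71.5% in the SI and 21.1% to 53.4% in the COL, so that COL4 reached into the SI range. The Jun family sum was 15.9 to 21.4 CPM per kb in the SI and spread more widely in the COL, from 11.2 to 60.0. This sum includes Jund and Junb, whose levels are uncertain because the use of strand is not given. The ratio of the Fos to the Jun family sum was 5.24, 6.96, 3.46 and 9.38 in SI1 to SI4 and 0.826, 0.580, 1.51 and 3.90 in COL1 to COL4. It was higher in the SI in each mouse, although COL4 exceeded SI3.

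**Figure D3:**
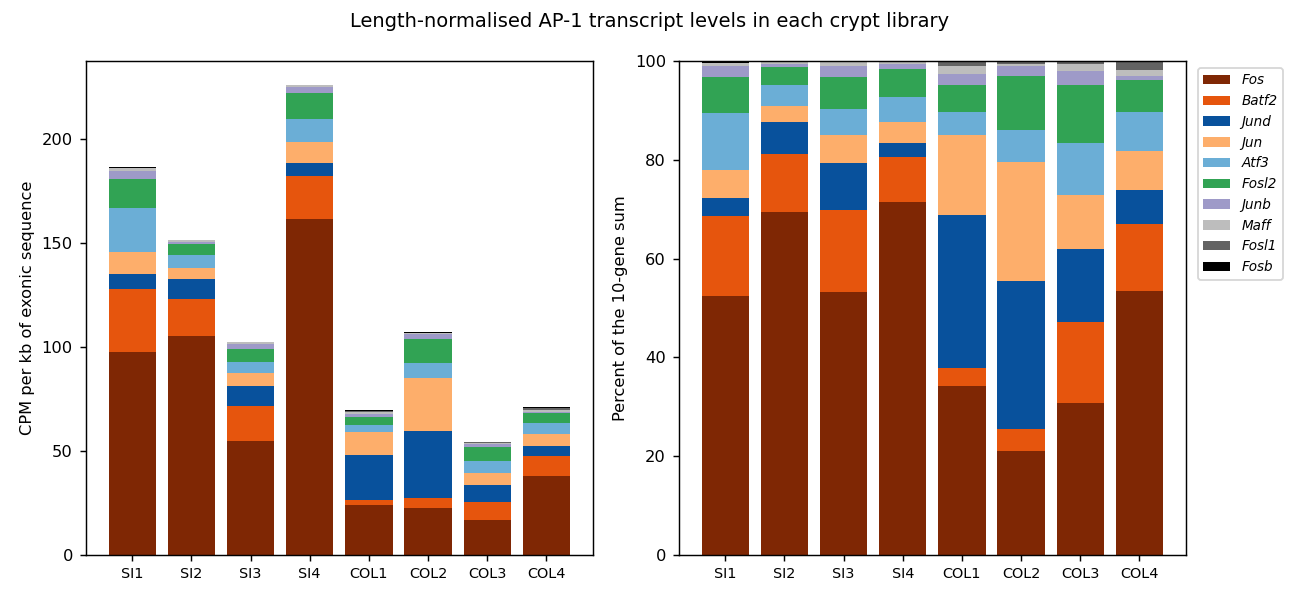
Levels per kb of exonic sequence of the 10 AP-1 genes stacked in each library, as CPM per kb (left) and as percent of their sum (right). Fos (dark brown) is the largest share in the 4 SI libraries, whose sums run from 103 to 226 CPM per kb against 54.3 to 107 in the COL, and Jund (dark blue) and Jun (light orange) exceed it in COL2.

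Among the 4 SI libraries, Fosb, Fosl2, Jun, Junb, Atf3 and Batf2 were higher in both female libraries than in both male ones. These were 6 of the 10 genes, beside 25.4% of all genes. Jund and Fosl1 were lower in both, 2 of the 10 genes, beside 28.6% of all genes. Fosl1 had 0 counts in both female SI libraries and 1 and 5 in the male ones. The female SI libraries were also those with low mitochondrial shares, with the higher leukocyte sums (115 and 84.5 CPM against 44.3 and 45.2 CPM) and with the higher villus sums (82129 and 50441 CPM against 27715 and 27506 CPM). Sex, mitochondrial share and these lists cannot be told apart within the SI. In the COL, Fosl2, Junb and Atf3 were lower in both female libraries (11.7% of all genes) and Fos and Fosl1 were higher (9.80%). The tissue difference did not pass the test of an interaction with sex for any of the 10 genes. Of the 14491 genes, 0 passed it by edgeR, 761 having an unadjusted p under 0.05, and 0 of the 10 passed it by limma-voom. The lowest unadjusted p-values of the 10 by edgeR were 0.00392 for Fosl2 (interaction -2.22, males minus females), 0.0101 for Atf3 and 0.0112 for Fosl1.

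Of 16 further bZIP genes that pair or compete with AP-1 proteins, 13 were tested. Of these, 5 passed (38.5%, beside 28.4% of all genes), 4 of them higher in the SI (15.5% of all genes). Maf, a large Maf gene with its own activation domain, was at 242 to 366 CPM in the SI and 2.05 to 6.90 CPM in the COL (log2 fold change 6.00, SE 0.50). Bach1, the heme-sensing repressor that pairs with small Mafs, was at 31.5 to 47.4 against 11.4 to 14.5 CPM (1.57).

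Atf2, a partner of Jun, was higher in the SI by 0.91 on the log2 scale, and Nfe2l1, a CNC factor of the proteasome response, was higher in the COL (-0.83). The SI and COL libraries did not overlap for any of these 4 named genes, nor for 33.5% of all genes. The remaining 8 had adjusted p-values of 0.0598 to 0.813 by edgeR, among them Nfe2l2, which encodes NRF2, and Mafk and Mafg. The list median was 0.73.

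Of 23 genes for kinases and factors that act on AP-1, 22 were tested and 7 passed (31.8%, beside 28.4% of all genes). Among the 5 higher in the SI were Rps6ka5, which encodes the kinase MSK1 (log2 fold change 3.50), Itch, encoding a ubiquitin ligase of JUN and JUNB (1.68), the JNK gene Mapk8 (1.47) and its activator Map2k4 (1.25). Higher in the COL were the second JNK activator Map2k7 (-1.28) and Rps6ka3, which encodes RSK2 (-0.83). Mapk3, Map2k1, Srf and Elk4 were among the 15 that did not pass (adjusted p = 0.0750 to 0.843, edgeR). The list median was 0.10.

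Of 24 other immediate early genes, 19 were tested and 4 passed (21.1%, beside 28.4% of all genes). Zfp36, whose protein speeds the decay of short-lived mRNAs, was at 220 to 439 CPM in the SI and 23.7 to 82.3 CPM in the COL (log2 fold change 2.73), and Socs3, an inhibitor of JAK and STAT signalling, was also higher in the SI (2.74). Nr4a1, an orphan nuclear receptor gene, was at 0.0604 to 0.778 CPM in the SI and 2.86 to 13.2 CPM in the COL (-4.48), and Klf2 was likewise higher in the COL (-4.78) at low levels, with 0.792 CPM at most. Egr1, at 1.87 to 5.53 CPM in the SI and 2.65 to 13.8 CPM in the COL, did not pass (-1.21, adjusted p = 0.0968, edgeR), nor did Ier2, Btg2, Dusp1 or Myc. The list median was -0.27.

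Of 18 genes known as AP-1 targets, only 8 were tested, since matrix protease genes such as Mmp3, Mmp10 and Mmp13 had hardly any counts. The 3 that passed (37.5%, beside 28.4% of all genes) were higher in the COL. They were Hmox1, the heme oxygenase gene (log2 fold change -4.10), Cd44, a hyaluronan receptor gene (-2.66), and Plaur, the urokinase receptor gene (-1.87). Cd44 was at 2.17 to 18.1 CPM in the SI and 45.6 to 99.0 CPM in the COL. Without SI3, 5 target genes passed. The growth factor genes Hbegf and Ereg had positive values that did not pass (1.33 and 1.67, adjusted p = 0.0537 and 0.0581, edgeR). Hbegf passed with the donor as a block in edgeR, and both passed in DESeq2 and in limma-voom with the block, which then called 2 targets higher in the SI and 3 higher in the COL. The list median was -0.55.

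**Figure D4:**
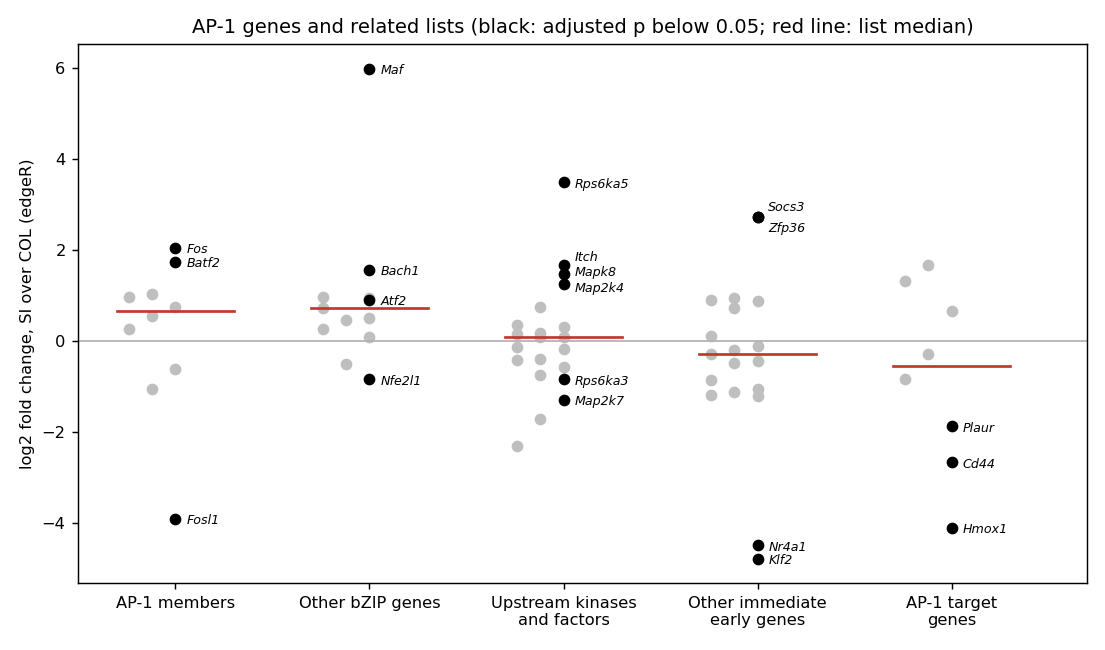
log2 fold changes (vertical axis, edgeR, positive where the SI was higher) of the AP-1 genes and of 4 related gene lists. Each point is a gene, named and black where the adjusted p was below 0.05, and red lines are medians of the whole lists. Of the bZIP and upstream lists, 1 gene each is not plotted. Calls lie on both sides of 0 in each list but that of AP-1 targets, whose 3 calls in this fit are all negative.

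Of the 11 heat shock genes tested, 2 passed (18.2%, beside 28.4% of all genes), with Dnaja1 (log2 fold change 2.34) and Dnajb1 (1.09) higher in the SI. Hspa1a and Hspa1b, the strongly inducible HSP70 genes, were at or under 1.43 CPM in all libraries. The 4 fibroblast and 3 smooth muscle genes tested had adjusted p-values of 0.161 to 0.679 and of 0.0839 to 0.995 by edgeR, and either list summed to at most 12.4 CPM. The endothelial gene Pecam1 was higher in the COL. Proliferation genes summed to 90.0 CPM in SI1 and 240 to 421 CPM in SI2 to SI4, against 275 to 518 CPM in the COL, with adjusted p-values of 0.0760 to 0.959 by edgeR. With the mean proliferation level as a covariate, 2 of the 10 AP-1 genes passed (Fos and Batf2, edgeR), beside 21% of all genes. Beyond this fit, the part of these cells and states in the AP-1 differences was not tested.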

How the data were processed

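RNA-Seq counts of 8 libraries were used, 4 from SI and 4 from COL crypts. The authors trimmed paired-end reads (Trimmomatic 0.36), aligned them to mm10 and counted them per gene with STAR 2.5.2b, tool versions being those in the submitters' processing notes, and deposited whole-number counts without normalization. The annotation and the use of strand are not given in the sources used here. Symbols, coordinates and exon lengths came from GENCODE vM21 (GRCm38), which matched 45143 of 45706 genes, and promoters from RefSeq (GRCm38.p6).

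SI and COL were compared in R 4.3.3 by the quasi-likelihood test of edgeR 4.0.16, with TMM, filterByExpr by tissue (about 10 counts in 4 libraries, 15 in all) and Benjamini-Hochberg adjustment at 0.05. DESeq2 1.42.0 and limma 3.58.1 (voom) were alternatives, with library-size scaling, RLE factors, other filters, covariates, single mitochondrial levels, the donor block and each library left out. A left-out pair (SI1 and COL2), the proliferation and leukocyte covariates and the interaction with mitochondrial level were added after the data were examined. The fits were tested on simulated counts. Replicates were separate mice, and each pair differed by more than sampling noise. Donor numbers in the labels pair the tissues, although deviations of same-mouse libraries correlated at -0.24, 0.39, -0.08 and 0.33 only.

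Members and lists were chosen with earlier results of these data known. Named were all members, the called genes of each list (at most 8, the largest) and the 3 genes most alike in pattern to each called member, using log2 CPM with a prior count of 2. A called gene in each of the bZIP and upstream lists is not reported here but stays in their counts and medians. List genes without a call were named after their values were seen.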

Additional observations from a re-analysis of the deposited data

Results flagged for a closer look

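The difference between SI and COL crypts had opposite signs in the 2 female and the 2 male mice for Fosb and Atf3. For Fosb, the tissue-by-sex interaction was -3.83 on the log2 scale (males minus females, unadjusted p = 0.115, adjusted p = 0.909, edgeR), with mean within-mouse differences of 2.05 in females and -1.24 in males. For Atf3, the interaction was -2.04 (unadjusted p = 0.0101, adjusted p = 0.909, edgeR), with 1.86 in females and -0.15 in males. Neither passed the adjustment over all genes. In the SI, the female libraries were also those with a low mitochondrial share, so that sex and that share cannot be told apart there.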

How the results depend on the processing

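The direction of Fos, Fosl1, Atf3 and Batf2 was kept in every alternative in which they were tested. Asking for 10 or more counts in all 8 libraries removed Fosl1 and Fosb. The donor block (edgeR, replicate block) kept the 3 AP-1 calls, with adjusted p = 0.0014 for Fos, 0.0150 for Batf2 and 0.0478 for Fosl1, and left the counts for the other bZIP, upstream and early genes within 1.5 times, while AP-1 targets numbered 4 with the block in edgeR (3 without), and 5 with it in limma-voom (4 without). Leaving out each library in turn gave 2 to 3 AP-1 genes, 4 to 6 other bZIP genes, 5 to 7 upstream genes, 4 to 5 early genes and 2 to 5 targets, 5 without SI3.

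Other counts of calls moved. Without a filter (13.7% of all genes called, 28.4% with it) there were 5 AP-1 genes (Atf3 and Jund added), 3 other bZIP genes and 6 targets (3 higher in the SI, 3 in the COL). Low mitochondrial libraries alone (37.0% of all genes called) gave 6 AP-1 genes and 7 early genes, and high ones alone (14.8%) 1 other bZIP gene, 3 upstream genes and 1 target. DESeq2 gave 5 targets (2 higher in the SI, 3 in the COL), and the proliferation covariate 1. The leukocyte covariate gave 0 AP-1 genes in edgeR (2 at an unadjusted p under 0.05, with 1696 calls over all genes against 4116), 2 other bZIP genes, 4 upstream genes and 2 early genes. Library size alone gave 10 early genes (2 higher in the SI, 8 in the COL), 10 upstream genes (2 and 8) and 4 AP-1 genes (1 and 3: Fos against Fosl1, Jun and Jund). It shifted the split over all genes from 2253 against 1863 to 1115 against 4788.

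Signs turned for Fosb with high mitochondrial libraries alone (-2.14) and with the proliferation (-0.25) or leukocyte covariate (-0.50), for Fosl2 by library size alone (-0.11) and in high libraries (-0.40), for Jun in low libraries (0.83), without COL2 (0.066, with -0.84 to 0.066 over all left-out libraries) and with the leukocyte covariate (0.47), for Junb in high libraries (-0.16), for Jund with the leukocyte covariate (0.96), and for Maff by library size alone (-0.53), in high libraries (-0.14) and without SI1 and COL2 (-0.11). The causes were not tested. For Fosl1, at 0 to 5 counts in the SI, counting error adds to the spread between mice.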
